A study of Mus musculus with 12 samples.

Results

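The 9 inhibitors of Wnt signalling Nkd1, Wif1, Dkk2, Dkk3, Notum, Axin2, Znrf3, Rnf43 and Apcdd1 were followed over 12 mouse colon arrays in 4 groups of 3. They were chosen by name, with earlier results of these data known. All non-control probes whose RefSeq accession carries one of the 9 symbols were taken. This gave 10 probes, of the 18539 genes with a symbol on the array, and all 9 genes were among the 19091 tested. All samples are RNA of the distal colorectal epithelium, collected on day 100 from female BALB/c mice. The age given for the mice, 5 to 7 weeks, is shorter than 100 days and so is not their age at collection. In the AOM/DSS group the carcinogen AOM was injected once into the peritoneum at 12.5 mg/kg, and from day 5 DSS, which inflames the colon, was drunk for 5 days in each 21, over 3 cycles. The AOM group had 6 weekly injections of 10 mg/kg and no DSS, the DSS group had the 3 DSS cycles alone, and the control group had neither. AOM/DSS tissue was neoplasm clipped with scissors and stored in RNA storage solution, whereas the other groups' tissue went into Trizol after scraping with a slide; the AOM dose, the way of collection and the tissue therefore cannot be told apart in any comparison with AOM/DSS. The sources used here give no DSS concentration and do not state that replicates are separate mice, so the p-values measure how far these samples vary, and that variation may be technical.

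Wnt ligands bind Frizzled receptors together with Lrp5 or Lrp6, and this stops the destruction complex from degrading β-catenin, which then enters the nucleus and activates genes with TCF/LEF factors. In the colon this signal keeps the stem cells at the crypt base dividing, and loss of Apc or activation of β-catenin is a usual first step of colorectal tumours. The inhibitors act at successive steps of the route: Wif1 and Notum on the ligand, the Dickkopf proteins and Apcdd1 at the cell surface, Znrf3 and Rnf43 on the Frizzled receptor, and Nkd1 and Axin2 inside the cell. Several of them, Axin2, Nkd1, Notum, Znrf3 and Rnf43 among them, are themselves switched on by β-catenin, and so form negative feedback.

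Promoter sequences were available from RefSeq (GRCm38.p6) for 5 of the 9 members, and those of Wif1, Dkk2, Nkd1 and Axin2 are shown because 3 of these genes had among the largest differences and Axin2 is the most used feedback reporter of the pathway. Each is the 250 bases before the annotated start, on the plus strand: chr10:121033754-121034003 for Wif1, chr3:132085042-132085291 for Dkk2, chr8:88527383-88527632 for Nkd1 and chr11:108920099-108920348 for Axin2. Capitals mark CTTTG, the stretch shared by the 4 TCF/LEF core motifs searched on both strands, which are CTTTGAT or CTTTGAA, and besides these CTTTGTA or CTTTGTT.
Wif1: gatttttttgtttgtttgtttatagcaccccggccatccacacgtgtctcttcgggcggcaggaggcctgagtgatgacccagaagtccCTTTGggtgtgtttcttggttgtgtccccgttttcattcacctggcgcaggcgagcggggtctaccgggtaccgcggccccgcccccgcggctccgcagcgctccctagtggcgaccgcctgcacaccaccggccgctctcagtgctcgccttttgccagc
Dkk2: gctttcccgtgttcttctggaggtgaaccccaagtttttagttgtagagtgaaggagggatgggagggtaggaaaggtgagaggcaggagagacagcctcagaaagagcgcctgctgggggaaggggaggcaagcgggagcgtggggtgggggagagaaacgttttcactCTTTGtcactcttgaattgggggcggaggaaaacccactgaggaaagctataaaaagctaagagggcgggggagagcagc
Nkd1: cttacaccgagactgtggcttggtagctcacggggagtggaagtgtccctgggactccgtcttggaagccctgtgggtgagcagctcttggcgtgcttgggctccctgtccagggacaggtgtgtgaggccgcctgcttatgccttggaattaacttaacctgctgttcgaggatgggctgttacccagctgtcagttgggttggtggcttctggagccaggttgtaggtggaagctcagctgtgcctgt
Axin2: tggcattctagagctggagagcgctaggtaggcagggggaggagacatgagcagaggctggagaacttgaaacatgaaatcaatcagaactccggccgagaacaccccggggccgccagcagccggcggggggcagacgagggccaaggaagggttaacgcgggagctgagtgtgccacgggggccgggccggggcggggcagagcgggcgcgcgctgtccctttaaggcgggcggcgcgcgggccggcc
None of the 6 windows of the members (Rnf43 has 2) held one of the 4 motifs, which occur in 14.8% of 32851 promoters of this length. The shorter CTTTG, looked for after the 4 motifs gave no match, was in 2 of the 6, Wif1 at 161 and Dkk2 at 80 bases before the start, and in 48.6% of all promoters. A match describes the letters only, and its lack says nothing about TCF/LEF binding elsewhere.

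Levels are log2 intensities relative to the 75th percentile of the same array, so 0 is that percentile, and they compare arrays, never one probe with another. The 75th percentile itself was 394 to 694 intensity units outside the AOM/DSS group and 1115 to 1186 within it, and 62.6% to 66.2% against 52.0% to 59.3% of probes were well above background; no spot was saturated. Epithelial markers were well above background on all arrays (12 of 12), with a mean log2 level of 4.72 to 4.97 in AOM/DSS and 5.88 to 6.81 elsewhere. Neutrophil markers were at -1.28 to 0.27 in AOM/DSS and -5.07 to -2.29 elsewhere. Of these 8 markers only 2 were well above background on each control array, and 3 to 5 on the DSS arrays. On the AOM arrays 5 to 6 were, and on the AOM/DSS arrays 6 to 7, with Camp on none. Lymphocyte markers were at -2.44 to -1.01 in AOM/DSS against -1.15 to 2.80 elsewhere. How far this makeup moves the members was not tested, and in RNA from bulk tissue fewer cells of a type and less RNA per cell cannot be told apart. By the array most like it, 4 arrays lay nearer to another group than to their own. AOM replicate 1 and DSS replicate 2 were most like each other over the genes tested (Pearson r = 0.978), whereas AOM replicates 2 and 3 formed a pair (r = 0.984). Control replicate 3 and DSS replicate 1 likewise formed a pair (r = 0.970). The 12 fibroblast markers averaged 2.91 on control replicate 3, against 0.38 and -0.54 on the other control arrays and 2.10 to 2.95 on all arrays outside the control group. Endothelial markers showed the same split among the controls, -1.53 with 9 of 9 well above background against -4.13 and -4.42 with 1 and 2 of 9. Exocrine pancreas markers were at 6.07 on control replicate 3 and 3.37 on DSS replicate 1, and between -4.20 and 1.83 on the others. Test results that rest on AOM replicate 1 or control replicate 3 are given with and without it.

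**Figure D1:**
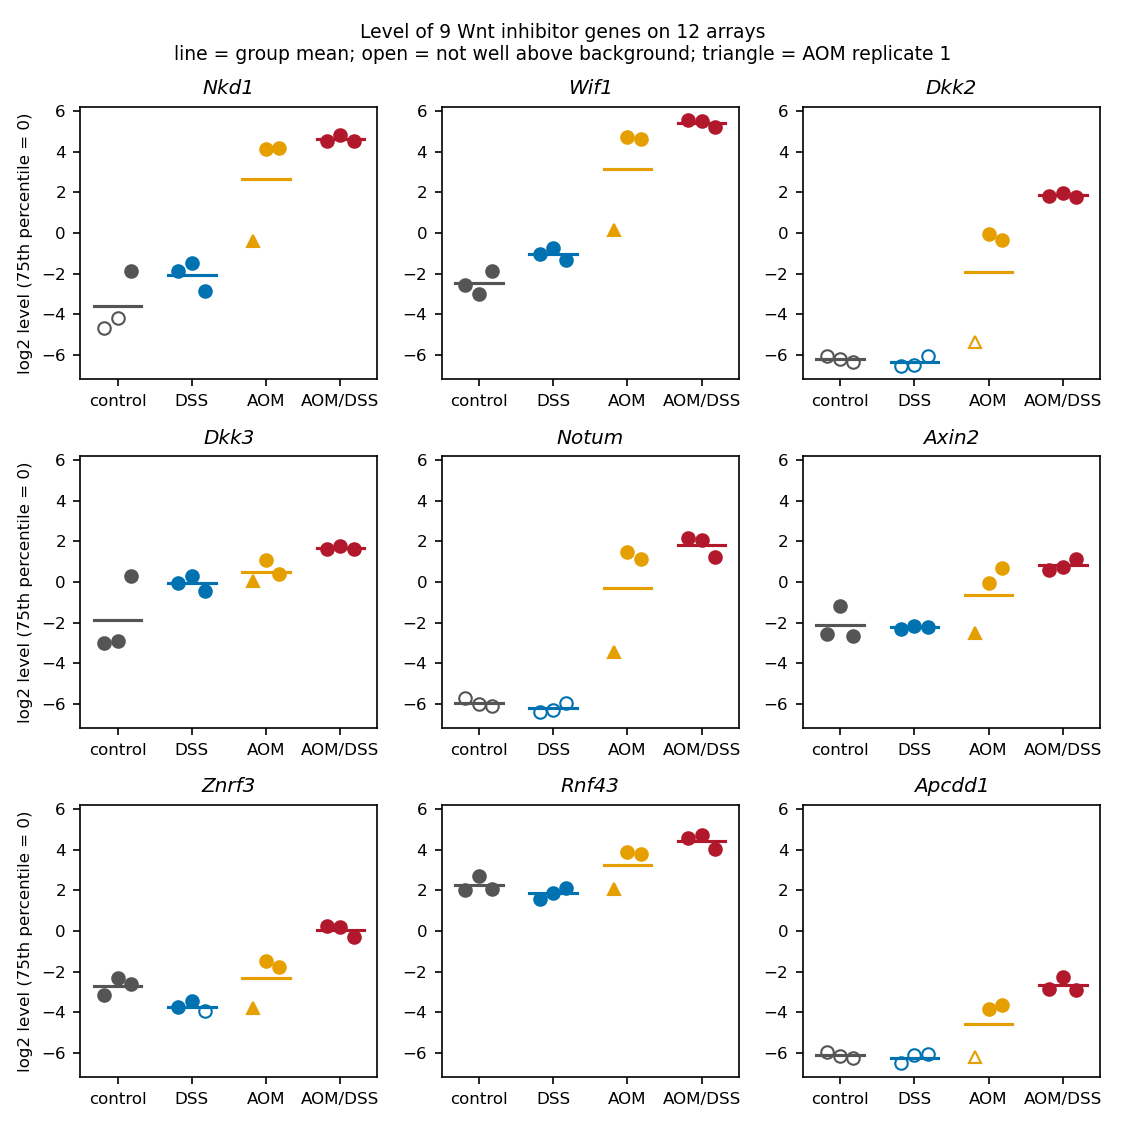
Log2 level (vertical axis, 75th percentile of each array at 0) of each member on each of the 12 arrays, by group, with a line at the group mean, open symbols where the probe was not well above background and a triangle for AOM replicate 1. All AOM/DSS arrays lie above all control arrays in the 9 panels, and AOM replicate 1 lies below the other AOM arrays in each.

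Against control epithelium, 9 of the 9 members were higher in the neoplasms of AOM/DSS mice at a Benjamini-Hochberg adjusted p under 0.05 in limma, where 17.2% of all genes tested were called higher. Since the members were chosen with earlier results of these data known, their counts and medians beside those of all genes are a description. The median difference of the 9 was 3.56 on the log2 scale, against 0.03 over all genes, and no member had an AOM/DSS array within the range of the control arrays, as held in the higher direction for 26.3% of all genes. AOM alone was called higher than control in 5 members (14.8% of all genes), Nkd1, Wif1, Dkk2, Dkk3 and Notum. With DSS alone limma called 0 members (0.157% of genes called higher). At an unadjusted p under 0.05 there was 1 member, Dkk3, and 21.2% of all genes.

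Inside the cell, Nkd1 binds Dishevelled and damps the signal downstream of the receptor. Its level was -4.65, -4.20 and -1.87 on control replicates 1 to 3, the first pair of which was not well above background, and -1.85, -1.45 and -2.84 on the DSS arrays. It was -0.37, 4.12 and 4.18 on the AOM arrays and 4.53, 4.84 and 4.54 on the AOM/DSS arrays. The AOM/DSS arrays were the highest, AOM replicates 2 and 3 lay just under them, AOM replicate 1 lay between these and the rest, and control and DSS overlapped. The group means were -3.57 ± 1.49 in control, -2.05 ± 0.72 in DSS, 2.64 ± 2.61 in AOM and 4.64 ± 0.17 in AOM/DSS (SD, n = 3 each). AOM/DSS exceeded control by 8.21 ± 1.11 (SE; limma adjusted p = 0.00046), with 1 of 3 controls well above background, and exceeded that control, replicate 3, by 6.51. AOM exceeded control by 6.22 ± 1.11 (adjusted p = 0.0065) on the same footing, while the AOM/DSS to AOM difference of 1.99 did not pass (adjusted p = 0.17). A second Nkd1 probe gave the same order of group means on its own scale, with 3.14, 3.24 and 2.66 on the AOM/DSS arrays and -2.42, 1.72 and 1.73 on the AOM arrays. It read -3.35, -3.30 and -4.92 on the DSS arrays, the last not well above background, and -4.74, -5.98 and -3.34 on the controls. On this probe AOM replicates 2 and 3 lay further below AOM/DSS than on the first. The AOM/DSS to AOM difference was 2.67 ± 1.03 and did not pass either (limma adjusted p = 0.064). The AOM/DSS minus control difference of the second probe was 7.70 ± 1.03 (limma adjusted p = 0.00043 over 25390 probes).

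Axin2 is the scaffold of the destruction complex that β-catenin itself induces. On the control arrays it was at -2.57, -1.19 and -2.65, and on the DSS arrays at -2.30, -2.19 and -2.21. The AOM arrays read -2.49, -0.04 and 0.68, and the AOM/DSS arrays 0.59, 0.74 and 1.15. AOM replicate 1 lay within the control range, the other AOM arrays lay above every control and DSS array, and AOM replicate 3 reached into the AOM/DSS range. Means were -2.14 ± 0.82, -2.23 ± 0.06, -0.62 ± 1.66 and 0.83 ± 0.29 in control, DSS, AOM and AOM/DSS (SD, n = 3 each). The gain in AOM/DSS over control was 2.96 ± 0.68 (SE; limma adjusted p = 0.0076). In AOM the difference from control was 1.52 with a 95% interval from 0.01 to 3.03 and did not pass (adjusted p = 0.11).

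Among the secreted members, Wif1 binds Wnt proteins outside the cell. Control arrays had Wif1 at -2.54, -3.02 and -1.84 and DSS arrays at -1.04, -0.71 and -1.33. AOM arrays had 0.16, 4.72 and 4.62, and AOM/DSS arrays 5.55, 5.51 and 5.20. The groups did not overlap, with control lowest and DSS next, AOM replicate 1 not far above DSS and the other AOM arrays close below AOM/DSS. Wif1 was well above background everywhere, and its means were -2.47 ± 0.59, -1.03 ± 0.31, 3.17 ± 2.61 and 5.42 ± 0.19 in control, DSS, AOM and AOM/DSS (SD, n = 3 each). It rose by 7.89 ± 0.97 in AOM/DSS over control (SE; limma adjusted p = 0.00026, rank 13 of 19091) and by 5.63 ± 0.97 in AOM (adjusted p = 0.0059). The DSS minus control difference of 1.44 ± 0.97 did not pass (adjusted p = 0.39), although the arrays of these groups were separate.

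Notum is an enzyme that strips the lipid from Wnt proteins and so inactivates them. It was not well above background on any control array (-5.72, -5.97, -6.10) or DSS array (-6.37, -6.27, -5.93). On the AOM arrays it was at -3.46, 1.49 and 1.13, and on the AOM/DSS arrays at 2.18, 2.06 and 1.21. All AOM and AOM/DSS arrays were above all control and DSS arrays, and AOM replicate 2 lay within the AOM/DSS range. A probe below background has only a bound. The fold given for such a probe sets the mean of the brighter group against the dimmer group's mean of, for each array, the lowest signal of any probe well above background or the probe's own signal if higher. On this footing Notum exceeded control in AOM/DSS by at least 53.8-fold (limma adjusted p = 0.00038) and in AOM by at least 12.6-fold (adjusted p = 0.0066). The measured means were 1.82 ± 0.53 in AOM/DSS, -0.28 ± 2.76 in AOM, -6.19 ± 0.23 in DSS and -5.93 ± 0.20 in control (SD, n = 3 each).

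Dkk2 is a Dickkopf protein that binds Lrp5 and Lrp6. No control array (-6.04, -6.22, -6.33) and no DSS array (-6.55, -6.50, -6.05) was well above background. Neither was AOM replicate 1 at -5.36, whereas AOM replicates 2 and 3 were at -0.05 and -0.33. The AOM/DSS arrays read 1.81, 1.95 and 1.78. These were close together and well above AOM replicates 2 and 3, which in turn were far above the rest. The increase over control was at least 55-fold in AOM/DSS (limma adjusted p = 0.00044) and at least 4.05-fold in AOM (adjusted p = 0.017). AOM/DSS also exceeded AOM, by 3.76 ± 1.07 (SE; adjusted p = 0.022). Measured means were -6.19 ± 0.15, -6.37 ± 0.27, -1.91 ± 2.99 and 1.85 ± 0.09 in control, DSS, AOM and AOM/DSS (SD, n = 3 each).

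Dkk3 is a divergent Dickkopf that does not act through Lrp5 and Lrp6 as its relatives do. Control arrays were at -3.01, -2.92 and 0.28, DSS arrays at -0.03, 0.28 and -0.45. AOM arrays were at 0.04, 1.07 and 0.40 and AOM/DSS arrays at 1.63, 1.79 and 1.60. Control replicate 3 lay with the DSS and AOM arrays, far above its own group, and only the AOM/DSS arrays were clear of all others. The means were -1.88 ± 1.88, -0.07 ± 0.37, 0.50 ± 0.53 and 1.68 ± 0.10 in control, DSS, AOM and AOM/DSS (SD, n = 3 each). Dkk3 rose by 3.56 ± 0.72 in AOM/DSS over control (SE; limma adjusted p = 0.004) and by 2.38 ± 0.72 in AOM (adjusted p = 0.03), the latter with overlapping groups. Against control replicate 3 alone the AOM/DSS mean was 1.39 higher, and against the other controls 4.69 and 4.60 higher.

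At the membrane, Znrf3 and Rnf43 are related ubiquitin ligases that remove Frizzled from the cell surface unless R-spondin holds them back. Znrf3 was at -3.13, -2.33 and -2.60 on the control arrays and at -3.73, -3.46 and -3.95 on the DSS arrays, the last not well above background. It was at -3.77, -1.48 and -1.75 on the AOM arrays and at 0.23, 0.22 and -0.28 on the AOM/DSS arrays. DSS lay below control without overlap, AOM replicate 1 lay among the DSS arrays, and AOM/DSS stood clear of everything else. Znrf3 rose by 2.74 ± 0.51 in AOM/DSS over control (SE; limma adjusted p = 0.0026) and by 2.39 ± 0.51 over AOM (adjusted p = 0.0086). The DSS minus control difference of -1.03 ± 0.51 did not pass (adjusted p = 0.27), nor did AOM minus control at 0.35 ± 0.51 (adjusted p = 0.61). Means were -2.69 ± 0.41, -3.71 ± 0.25, -2.33 ± 1.25 and 0.05 ± 0.29 in control, DSS, AOM and AOM/DSS (SD, n = 3 each).

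Rnf43 was well above background on every array, at 2.00, 2.70 and 2.09 in control and 1.57, 1.86 and 2.12 in DSS. It was at 2.07, 3.88 and 3.81 in AOM and 4.58, 4.71 and 4.05 in AOM/DSS. Control, DSS and AOM replicate 1 overlapped, the other AOM arrays lay above them, and the AOM/DSS arrays lay above all. The rise in AOM/DSS over control was 2.19 ± 0.44 (SE; limma adjusted p = 0.004), a 4.55-fold change. In AOM the difference of 0.99 ± 0.44 from control did not pass (adjusted p = 0.1), and that between AOM/DSS and AOM, 1.20 with a 95% interval from 0.22 to 2.17, did not pass either (adjusted p = 0.055). It did pass with normexp (1.60, adjusted p = 0.015), quantile normalization (1.68, 0.019) and the series matrix (1.68, 0.019), with the filter on all 12 arrays and with trend and robust variance (1.20, 0.043 in both), and not with median scaling (0.87, 0.17). Means were 2.26 ± 0.38, 1.85 ± 0.27, 3.25 ± 1.02 and 4.45 ± 0.35 in control, DSS, AOM and AOM/DSS (SD, n = 3 each).

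Apcdd1, a membrane glycoprotein that binds Wnt and Lrp5, gave low intensities, from 6.19 to 55.7 units in AOM and from 157 to 235 in AOM/DSS. The control arrays (-5.96, -6.15, -6.24), the DSS arrays (-6.51, -6.10, -6.06) and AOM replicate 1 (-6.20) were not well above background. AOM replicates 2 and 3 were at -3.83 and -3.64 and the AOM/DSS arrays at -2.85, -2.25 and -2.89. The order was that of Dkk2, with AOM/DSS above AOM replicates 2 and 3 and these above the rest. In AOM/DSS Apcdd1 exceeded control by at least 2.41-fold (limma adjusted p = 0.0011) and 1.89 ± 0.55 higher than in AOM on the log2 scale (SE; adjusted p = 0.024). That call against AOM was lost with median scaling (1.57, adjusted p = 0.053), quantile normalization (1.53, 0.064) and the series matrix (1.53, 0.064). For AOM against control no fold can be given, since the bound is under 1, and the test missed the threshold (adjusted p = 0.051), which it passed with normexp (0.036), median scaling (0.047), quantile normalization and the series matrix (0.019 in both). Means were -6.12 ± 0.14, -6.22 ± 0.25, -4.56 ± 1.42 and -2.66 ± 0.36 in control, DSS, AOM and AOM/DSS (SD, n = 3 each).

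**Figure D2:**
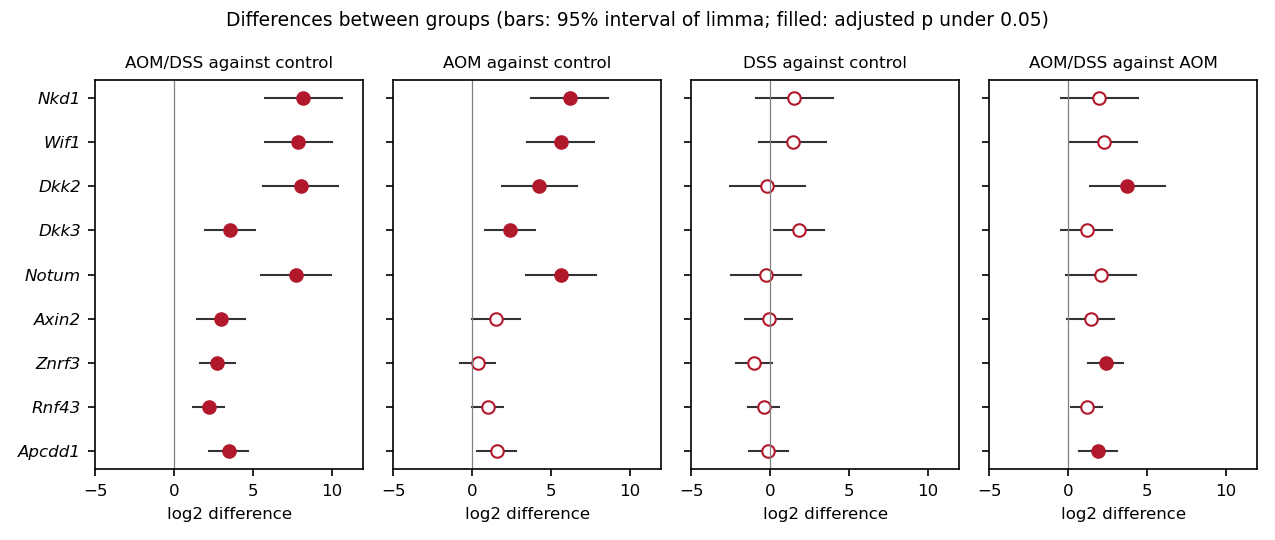
Log2 difference between groups (horizontal axis) for each member in 4 comparisons, with the 95% interval from limma; filled points passed an adjusted p of 0.05. AOM/DSS against control is filled for all 9 members, AOM against control for 5, DSS against control for 0 and AOM/DSS against AOM for 3; control and DSS values of Dkk2, Notum and Apcdd1 are not well above background.

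By their group means all 9 members were highest in AOM/DSS and second in AOM. DSS ranked above control for Nkd1, Wif1 and Dkk3 and below it for Axin2, Znrf3 and Rnf43, while Dkk2, Notum and Apcdd1, not well above background in either group, have no order there. The order turned for Nkd1 (-0.93) and Wif1 (-1.07) with slide as a block and for Axin2 (0.38) without control replicate 2. Of neighbours in this order, limma called no member between DSS and control, although the arrays of Wif1 and of Znrf3 did not overlap there. For Dkk2 and Notum, AOM was called against control and not against DSS (limma adjusted p = 0.16 and 0.097). For the other 7 members AOM was not called against the group next below. Among these, Nkd1 and Wif1 had DSS minus AOM differences of -4.69 and -4.19 without overlap of arrays (limma unadjusted p = 0.0015 and 0.0013). AOM/DSS differed from AOM for Dkk2, Znrf3 and Apcdd1, where 19.5% of all genes were called higher. Of these, Dkk2 and Apcdd1 were well above background on all arrays of AOM/DSS alone, through which they entered the tests. The intervals of the 6 other AOM/DSS to AOM differences reached from -0.45 to 4.44 for Nkd1 and from 0.12 to 4.39 for Wif1. AOM/DSS exceeded DSS in 8 members (17.6% of all genes were called higher), and Dkk3 was the exception at 1.74 ± 0.72 (SE; limma adjusted p = 0.08). Between DSS and AOM limma called 0 members (0.0105% of all genes were called lower in DSS), while 8 had an unadjusted p under 0.05 (14.8% of all genes, and 8.61% in the lower direction) and the limma fit with trend and robust variance also called 0. The median member difference was -1.66 for DSS minus AOM, and -1.61 with dim members at their bound. No overlap of arrays was seen for 9 members between AOM/DSS and DSS, 7 between AOM/DSS and AOM, 4 between AOM and control, 4 between DSS and AOM and 2 between DSS and control, in either direction. Over all genes tested the share without overlap in these comparisons was 48.9%, 59.5%, 49.2%, 18.6% and 18.5%.

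Passing the filter on dim probes rested on the treated groups for some members. Dkk2 and Apcdd1 passed through AOM/DSS alone, Notum through AOM and AOM/DSS, Nkd1 through every group but control and Znrf3 through every group but DSS. For the members that passed only where they were high, a difference from control was built into the choice. For Dkk2 and Apcdd1 this also holds for the AOM/DSS differences from AOM and DSS, and for Notum for the differences from DSS. Wif1, Dkk3, Axin2 and Rnf43 were well above background on all 12 arrays, and with that stricter filter 4 of 4 were called higher in AOM/DSS than in control, as were 15.7% of the 13814 genes then tested. With the dim members set at their bound, the median of the 9 remained 3.56 for AOM/DSS against control and went from 2.38 to 2.02 for AOM against control.

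AOM replicate 1 was the lowest AOM array for all 9 members. The mean of AOM replicates 2 and 3 exceeded it by 4.77 in Notum, 4.52 in Nkd1, 4.51 in Wif1, 2.81 in Axin2, 2.16 in Znrf3, 1.77 in Rnf43 and 0.70 in Dkk3, and by at least 19.6-fold in Dkk2 and 1.68-fold in Apcdd1, which were not well above background on replicate 1, whereas these 2 arrays differed from each other by 0.06 (Nkd1) to 0.72 (Axin2). For Axin2, Znrf3, Rnf43 and Dkk3 replicate 1 lay inside the range of the control and DSS arrays, and for Nkd1, Wif1 and Notum above it. Its fibroblast marker level of 2.66 lay between those of the other AOM arrays, 2.46 and 2.83. Its lymphocyte markers averaged 2.80, the highest of the 12 arrays, against 0.87 and -0.56 on AOM replicates 2 and 3, with 8 of 8 well above background on each, and their part in the members' levels was not tested. Without AOM replicate 2 or AOM replicate 3, 3 members were called higher in AOM than in control (4.86% and 9.08% of all genes). Without AOM replicate 1, 9 of 9 were called higher (11.5% of all genes). Each AOM mean must rise when its lowest array is dropped, so these calls are a description only. The differences were then 7.72 for Nkd1, 7.14 for Wif1, 2.62 for Dkk3, 2.46 for Axin2, 1.58 for Rnf43 and 1.07 for Znrf3, and at least 37.9-fold for Notum, 13.4-fold for Dkk2 and 1.15-fold for Apcdd1, with limma adjusted p from 4.3e-06 (Dkk2) to 0.044 (Dkk3). Against AOM, 8 of 9 were then called lower in DSS (1.53% of all genes), again as a description only. The exception was Dkk3 at -0.80 (limma adjusted p = 0.62).

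Between AOM/DSS neoplasms and the 2 remaining AOM arrays 3 members passed and 6 did not. Dropping the lowest AOM array must lower each of these differences and changes the spread, so these calls too are a description only. Dkk2, Znrf3 and Apcdd1 were called higher in AOM/DSS, by 2.04 ± 0.22, 1.67 ± 0.29 and 1.07 ± 0.26 (SE, with limma adjusted p = 0.0016, 0.011 and 0.023), where 14.4% of all genes were called. For Nkd1 the difference was 0.49 ± 0.71, for Axin2 0.50 ± 0.43, for Notum 0.51 ± 0.31, for Rnf43 0.61 ± 0.30, for Wif1 0.75 ± 0.34 and for Dkk3 0.94 ± 0.83, with adjusted p from 0.12 to 0.63. A difference between these sets of genes was not tested.

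**Figure D3:**
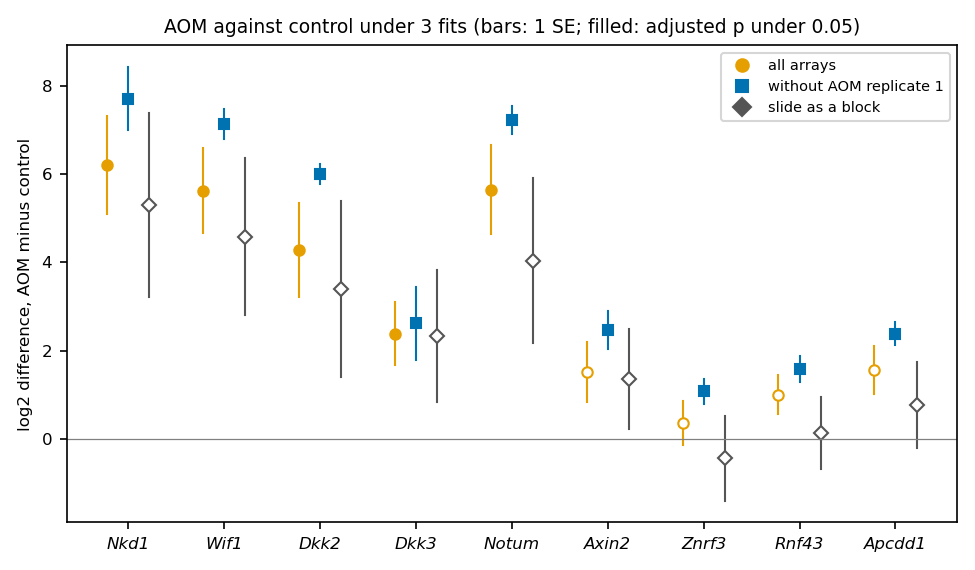
Log2 difference of AOM minus control (vertical axis) for each member over all arrays, without AOM replicate 1 and with slide as a block; bars are 1 SE and filled symbols passed an adjusted p of 0.05. The squares, without AOM replicate 1, are filled for all 9 members, and the diamonds, with the slide block, for 0; the values of Dkk2, Notum and Apcdd1 rest on controls not well above background.

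Single other arrays also moved some calls. AOM against control kept 3 of the 5 calls (Nkd1, Wif1 and Notum) without control replicate 1, AOM replicate 2 or AOM replicate 3, where 5.74%, 4.86% and 9.08% of all genes were called higher; Dkk2 then had adjusted p of 0.052, 0.065 and 0.055, and Dkk3 of 0.11, 0.1 and 0.066. AOM/DSS against AOM called 1 member, Znrf3, without AOM/DSS replicate 1 or 2 (9.29% and 11.8% of all genes), and 5 without AOM replicate 3 (15% of all genes), Axin2 and Rnf43 being the added ones. Rnf43 also passed there without AOM replicate 2 (adjusted p = 0.046) and Dkk3 without control replicate 3 (0.014), while Dkk2 did not without AOM/DSS replicate 3 (0.051). In AOM against control Dkk3 did not pass without control replicate 2 (adjusted p = 0.11), and in AOM/DSS against DSS it did without control replicate 3 (0.0025). Without control replicate 3, 9 of 9 members were called in AOM/DSS against control (18.3% of all genes).

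The arrays sat on 3 slides, numbered 1 to 3 here. Slide 1 held AOM replicates 1 and 2 and AOM/DSS replicates 1 and 2, slide 2 the DSS arrays and AOM replicate 3, and slide 3 the controls and AOM/DSS replicate 3. Within slide 3 AOM/DSS replicate 3 exceeded the control mean by 8.11 in Nkd1 (1 of 3 controls well above background), 7.67 in Wif1, 3.49 in Dkk3, 3.29 in Axin2, 2.40 in Znrf3 and 1.79 in Rnf43, and by at least 52.6-fold in Dkk2, 35.4-fold in Notum and 2.06-fold in Apcdd1. Within slide 2 the DSS mean minus AOM replicate 3 was between -6.23 (Nkd1) and -0.46 (Dkk3) for the 6 members above background on at least 2 DSS arrays, and within slide 1 AOM/DSS exceeded AOM by 1.16 (Dkk3) to 4.59 (Dkk2). With slide as a block, 6 members kept their call in AOM/DSS against control (4.93% of all genes), while Dkk3, Znrf3 and Rnf43 had limma adjusted p of 0.082, 0.068 and 0.094. AOM and control shared no slide. With the block 0 members were called between them (0.0105% of all genes called higher). An unadjusted p under 0.05 was found for 2 members, without a share over all genes to set beside it. AOM/DSS against AOM kept its 3 calls, Dkk2, Znrf3 and Apcdd1 (7.46% of all genes), and AOM/DSS against DSS, which also share no slide, kept 5, namely Wif1, Dkk2, Notum, Znrf3 and Apcdd1 (1.14% of all genes).

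Dkk3, Nkd1 and Wif1 followed the fibroblast markers across untreated and DSS epithelium. Over these 6 arrays the correlation of the level with the mean fibroblast marker level was 0.98 for Dkk3, 0.94 for Nkd1 and 0.89 for Wif1, and between -0.72 (Rnf43) and -0.40 (Apcdd1) for the other 6 members. This is a description: control replicates 1 and 2 lie apart from the other 4 arrays in it, and Dkk2, Notum and Apcdd1 were below background on all 6. With the AOM arrays added, the value over 9 arrays was 0.96 for Dkk3, 0.60 for Nkd1 and 0.52 for Wif1. All 12 fibroblast markers were well above background on every array, and the AOM/DSS range of their mean, 2.39 to 2.88, lay within that of the DSS arrays, 2.10 to 2.95. Without control replicate 3, Dkk3 was called higher in DSS than in control, by 2.90 ± 0.32 (SE; limma adjusted p = 0.0013), where 5.82% of all genes were called higher. Against that array alone the AOM/DSS mean was still 6.51 higher in Nkd1 and 7.26 in Wif1. The part of stromal RNA in these differences was not tested.

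**Figure D4:**
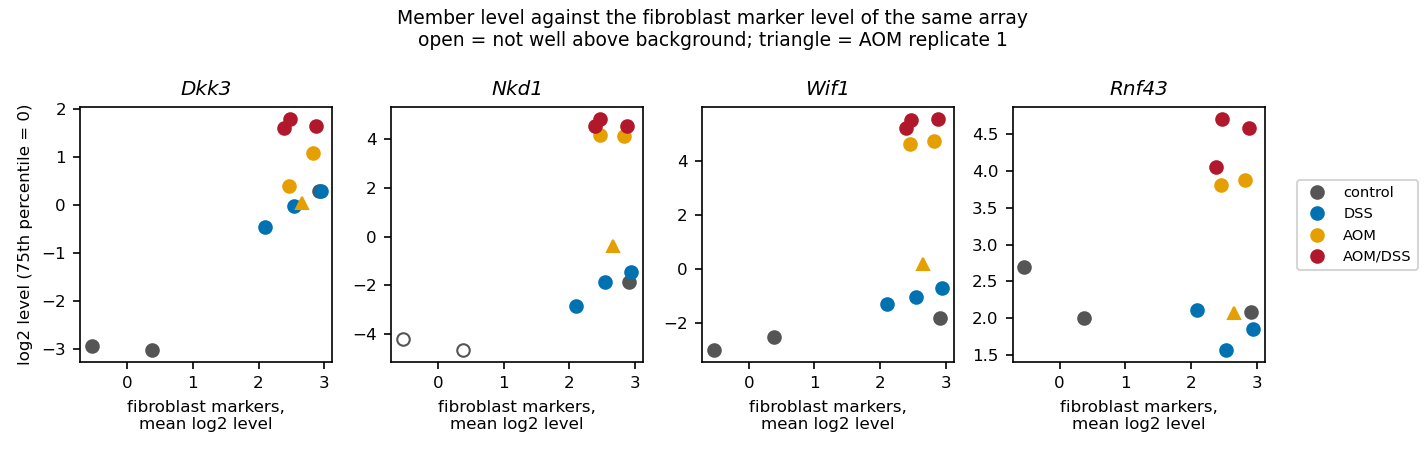
Log2 level of Dkk3, Nkd1, Wif1 and Rnf43 (vertical axis) against the mean log2 level of 12 fibroblast markers (horizontal axis) on each array, coloured by group. Control replicates 1 and 2 lie at the left at 0.38 and -0.54, and at a marker level of 2.39 to 2.88 the AOM/DSS arrays lie above all DSS arrays in the 4 panels.

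Over the 12 arrays each of the 36 pairs of members correlated positively, with r from 0.58 (Dkk3 and Znrf3) to 0.99 (Nkd1 and Wif1) and a median of 0.92. The pairs share arrays and groups, so these values are a description. Deviations from the group means had a median r of 0.84, and without AOM replicate 1 a median of -0.01, with 17 of 36 above 0. The pairs highest in that last measure were Nkd1 with Dkk3 (0.94), Wif1 with Dkk3 (0.84) and Nkd1 with Wif1 (0.83), the 3 genes that followed the fibroblast markers. In that measure control replicate 3 lay furthest above its group mean, by 2.17 in Dkk3, 1.70 in Nkd1 and 0.62 in Wif1. The same array enters the fibroblast correlations, and no correlation is given without it.

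The named genes closest in pattern to each member, by Pearson r of the level over 12 arrays among 13486 others, are given as a description; all these values rest on the same 4 groups. For Nkd1 they were Wif1 (0.99), Ctxn1 (0.99) and Dmpk (0.99), and for Wif1 Nkd1, Ctxn1 (0.99) and Sbspon (0.99). Notum was closest to Kif26b (1.00), Sbspon (0.99) and the ligand Wnt6 (0.99). For Dkk2 they were Fras1 (0.99), Defa21 (0.99) and Avil (0.99), for Apcdd1 Mapk4 (0.99), Neto2 (0.99) and Fras1 (0.99), and for Rnf43 Fgfrl1 (0.99), Gpld1 (0.99) and Pkhd1 (0.98). Axin2 was closest to Vwa2 (0.97), Hsd3b7 (0.96) and Pkhd1 (0.96), and Znrf3 to Hacd2 (0.98), Amot (0.98) and Slc39a8 (0.98). Dkk3 had Ccn4 (0.99), Pdgfc (0.98) and the collagen gene Col4a1 (0.98).

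Other Wnt pathway genes went in both directions in AOM/DSS against control, where 17.2% of all genes were called higher and 17.4% lower. Of 12 other secreted or surface antagonists tested, 4 rose, 4 fell and 4 did not pass, with a median of -0.37. Igfbp4, which binds Frizzled and Lrp6 beside insulin-like growth factors, rose by 2.70. Sfrp2, a secreted Frizzled-related protein that was above background on 1 of 3 AOM/DSS and 2 of 3 control arrays, fell by 3.28, and Trabd2b, a protease that cleaves Wnt, fell by 2.38. Of 24 other intracellular inhibitors 2 rose and 4 fell, with a median of -0.18. Sox17, which opposes β-catenin in the nucleus, rose by 4.49, while the Dishevelled antagonist Dact2 fell by 1.95 and the β-catenin inhibitor Ctnnbip1 by 1.43.

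Of 16 receptors, co-receptors and R-spondins 2 were called higher and 8 lower (median -0.35). Rspo1, an R-spondin counted with the receptors here and below, was among the 8. It was well above background on 1 control array and 0 AOM/DSS arrays. Fzd5 fell by 3.62, while Fzd10 rose by 2.98 and Lgr5, the R-spondin receptor of crypt stem cells, by 3.55. Of 14 ligands and secretion factors 7 were called higher and 0 lower (median 1.20). Among them were Wnt10a at 7.34 (above background on 1 of 3 controls), Wnt6 at 5.46 and Wnt3, at least 6.98-fold higher. Wnt3, Wnt5a, Wnt9a and Wnt16 were above background on no control array, so passing the filter rested on treated groups. For Wnt5a and Wnt9a no fold can be given, since the bounds are under 1 (0.766 and 0.558). Among 10 transducers and nuclear factors 2 rose and 3 fell (median 0.27); Lef1 rose by 3.40, and Tcf7l1 and Tcf7l2 fell by 2.53 and 2.40. Of 20 known targets of the pathway 14 rose and 0 fell (median 1.61). Mmp7, a matrix protease, was at least 1210-fold higher and the transcription factor gene Sp5 at least 83.9-fold higher, and the receptor gene Tnfrsf19, above background on 1 of 3 controls, rose by 6.67. The limma adjusted p of the genes named from the lists ran from 1.9e-05 (Mmp7) to 0.043 (Sfrp2). Lef1 and Lgr5 stand in the target list as well as in their own.

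**Figure D5:**
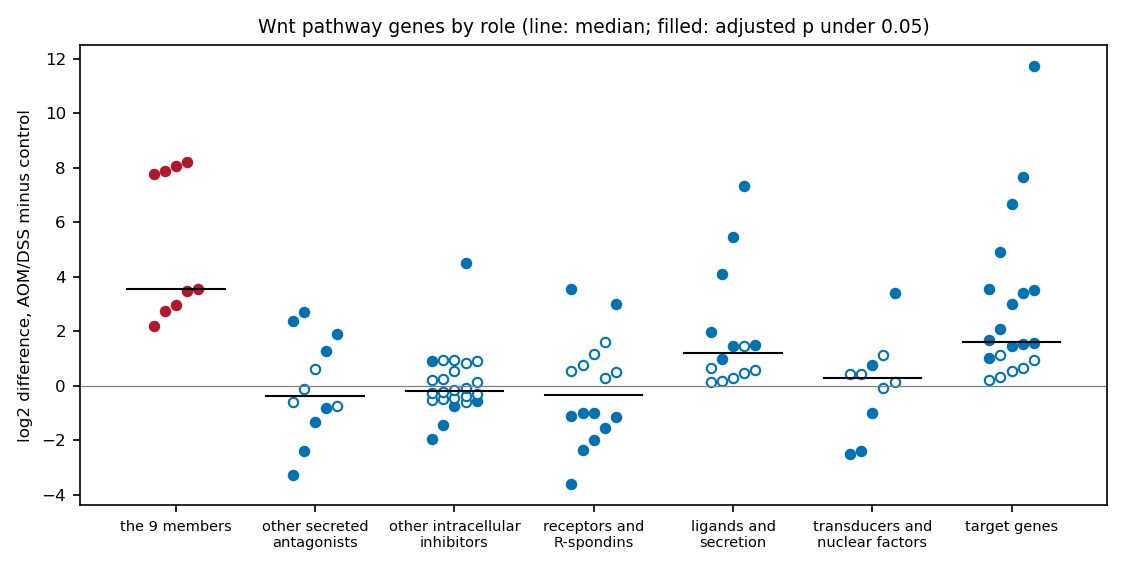
Log2 difference of AOM/DSS minus control (vertical axis) for the 9 members and 6 lists of other Wnt pathway genes by role; the line is the list's median and filled points passed an adjusted p of 0.05. The members' median is 3.56, and the lists' medians run from -0.37 to 1.61.

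In AOM against control, where 14.8% of all genes were called higher and 17.7% lower, 11 of the 20 targets rose and 0 fell, and 5 of the 14 ligands rose and 0 fell. Without AOM replicate 1 these counts were 12 and 5 higher. The other secreted antagonists had 4 higher and 1 lower, or 2 and 0 without that array, and the other intracellular inhibitors 1 higher and 2 lower, or 1 and 0. Receptors gave 2 higher and 3 lower, or 3 and 3, and transducers 2 higher and 1 lower, or 0 and 1. With DSS alone limma called 0 genes in each of the 6 lists, while 7 secreted antagonists, 5 receptors, 4 ligands, 4 targets, 2 intracellular inhibitors and 2 transducers had an unadjusted p under 0.05, as had 21.2% of all genes. Without control replicate 3, between 0 and 2 genes of each list were called higher in DSS and 0 lower. In AOM/DSS against control the counts without that array were 4 higher and 2 lower for the secreted antagonists, 2 and 5 for the intracellular inhibitors, 3 and 7 for receptors, 8 and 0 for ligands, 1 and 2 for transducers and 13 and 0 for targets.

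The scaling moved the split of calls over all genes. Of the genes called, 49.7% were higher in AOM/DSS than in control with the 75th percentile at 0, and 39.1% with each array's median at 0. For AOM/DSS against AOM the shares were 52.6% and 33.7%, and against DSS 49.2% and 35.1%. Median scaling moved the median of all genes to -0.12 in AOM/DSS against control, 0.16 in AOM against control, -0.36 in AOM/DSS against AOM and -0.18 in AOM/DSS against DSS; quantile normalization moved the last to 0.12. For DSS against AOM, 2 genes were called lower with the 75th percentile and 1 higher with normexp.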

How the data were processed

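Expression was measured on 12 one-colour Agilent arrays. The deposited scanner files hold processed-signal intensity for each spot; per the file headers the software was Agilent's Feature Extraction, 10.7.3.1 (10.7 per the submitters' processing notes). The deposited series matrix holds log2 values; its sorted columns were equal within 0.000945, as after quantile normalization, a step that the authors do not name in the sources used here, and they served as an alternative. From log2 intensity the 75th percentile of the same array was subtracted. Probes stayed in if every array of 1 or more groups had them well above background, flagged spots were left out, and the probe with the highest mean stood for each gene (19091 genes, 13487 with a symbol). limma 3.58.1 (R 4.3.3) fitted the 4 groups with 1 shared spread (lmFit, eBayes), with Benjamini-Hochberg adjustment over all genes. The script was tested on simulated data. Alternatives were normexp (offset 50) with quantile normalization, median scaling, quantile normalization, the series matrix, other filters and probe rules, slide or replicate number as a block, trend and robust variance, and each array left out. Named genes were the members, the 3 genes most alike to each, and up to 3 called genes with the largest difference in each list. The members, lists and motifs were chosen with earlier results of these data known. The number of arrays limits the precision.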

Additional observations from a re-analysis of the deposited data

How the results depend on the processing

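In AOM/DSS against control 9 members were called without each array in turn. With slide as a block 6 were called (4.93% of all genes), and with the filter on all 12 arrays 4 of the 4 tested (15.7%). With that filter, which left 4 members to test, the calls were 2 in AOM against control, 3 in AOM/DSS against DSS and 1 in AOM/DSS against AOM, the last being Rnf43, a call gained. Normexp gave 5 calls in AOM/DSS against AOM, where 3694 genes were called higher. With slide as a block, AOM against control gave 0 (0.0105% of all genes called higher) and AOM/DSS against DSS 5 (1.14%). With that block and AOM replicate 1 left out, chosen after seeing the data, AOM against control gave 3, AOM/DSS against AOM 0, AOM/DSS against DSS 5 and DSS against AOM 4. Leaving out 1 array gave 3 calls (without AOM replicate 2, 4.86% of all genes) to 9 (without AOM replicate 1, 11.5%) in AOM against control. It gave 0 to 1 in DSS against control (5.82% without control replicate 3). In AOM/DSS against AOM it gave 1 (without AOM/DSS replicate 1, 9.29%) to 5 (without AOM replicate 3, 15%). In DSS against AOM it gave 0 to 8 (without AOM replicate 1, 1.53%). Counts without a share beside them only show how far the calls moved. Signs turned in DSS against control, where Dkk2, Notum and Apcdd1 were not well above background, for Dkk2 (0.18 with normexp, 0.0047 with quantile normalization and the series matrix, 0.0090 in the added fit), Notum (0.042 with normexp), Apcdd1 (0.079 with normexp, 0.22 with quantile normalization and the series matrix), Nkd1 (-0.93 with the slide block) and Wif1 (-1.07 with it), and for Znrf3 in AOM against control (-0.44 with it). Without single arrays Axin2 ran from -0.35 to 0.38 and Apcdd1 from -0.19 to 0.039 in DSS against control, and Znrf3 from -0.073 to 1.07 in AOM against control. The cause was not tested. Same-numbered arrays of different groups correlated at -0.27 to 0.25 in their deviations (median 0.09). Differently numbered arrays correlated at -0.25 to 0.38 (median -0.08). With 3 arrays a group, these values cannot decide whether the replicate numbers pair the arrays. A replicate block moved 2 of 54 member values past the threshold, Apcdd1 in AOM against control (1.56) and Rnf43 in AOM/DSS against AOM (1.20). Signal near background limits Dkk2, Notum and Apcdd1 in control and DSS.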
